A study of Mus musculus with 8 samples.

Results

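The expression of 10 genes of the Smad branch of TGF-β signaling, Smad2, Smad3, Smad4, Smad7, Ski, Skil, Smurf1, Smurf2, Pmepa1 and Tgfbi, was followed in mouse peritoneal mesothelial cells (MCs) in culture. They were taken from the table by gene symbol, all 10 had values, and all 10 of the 13687 genes in the table passed the filter on low values that left 13665 genes for testing. MCs, the cells that line the peritoneum, came from the digested parietal peritoneum of CAV1-deficient mice (B6.Cg-CAV1tm1mls/J, labelled Cav-1- and called CAV1-/- here) and of WT littermates, 2 animals of each genotype, whose age the labels do not give. Each animal gave 1 culture left static and 1 culture stretched for 24 h after confluence, so that RNAseq covered 8 libraries in 4 groups of 2 cultures. Caveolin-1 is the structural protein of caveolae, the membrane pits that flatten under tension. The labels state no pooling of animals. The deletion is constitutive and not limited to MCs.

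TGF-β ligands bind a pair of receptor kinases, and the activated type I receptor phosphorylates Smad2 and Smad3, which join Smad4 and enter the nucleus to act on transcription. The pathway is held in check by its own products. Smad7 blocks the receptor and brings the ubiquitin ligases Smurf1 and Smurf2 to it, Ski and Skil (SnoN) bind Smad complexes on DNA and repress them, and Pmepa1 keeps Smad2 and Smad3 from the receptor. Several of these inhibitors are themselves transcribed in response to TGF-β, as is Tgfbi, which encodes a secreted matrix protein, and TGF-β drives the mesothelial-to-mesenchymal transition of MCs.

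Values are TMM-normalized CPM, reads of a gene relative to the adjusted total of its library. The libraries held 9777738 to 21203938 reads, and the shallowest stretched library (15861571) had more reads than the deepest static one (14237503). Floors and reads cover counting error only, and 3 reads corresponded to 0.146 to 0.308 CPM. Cav1, the deleted gene, was at 247 to 764 CPM in the WT libraries and 12.8 to 34.5 CPM in the CAV1-/- libraries. Markers of MCs summed over 10 genes were at 1643 to 2331 CPM in WT and 370.4 to 552 CPM in CAV1-/- cultures, and none of the 10 was at 0 in any library. The 11 leukocyte markers with values summed to 4691 and 4740 CPM in both cultures of CAV1-/- replicate 1 and to 78.1 to 461 CPM in the other 6 libraries. The 6 fibroblast markers summed to 616 to 5456 CPM, and in every group to more in replicate 2 than in replicate 1. The 4 smooth muscle and pericyte markers were at 164 to 1208 CPM and the 5 endothelial markers at 22.7 to 71.8 CPM in sum, with only Emcn at 0 (both cultures of CAV1-/- replicate 2). In bulk cultures fewer cells of a type and less RNA per cell cannot be told apart.

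**Figure D1:**
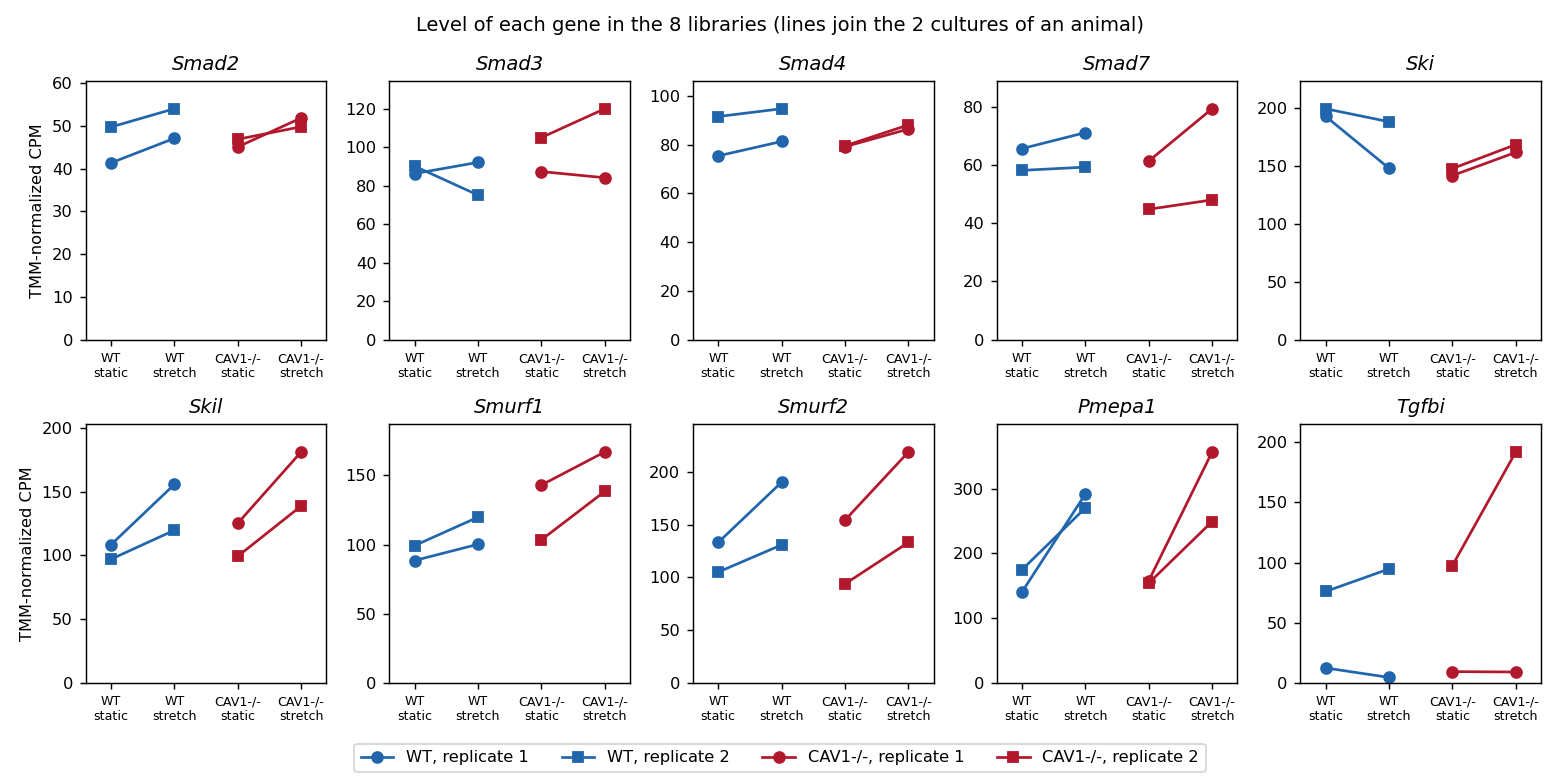
Level of each of the 10 genes (TMM-normalized CPM, axes starting at 0) in the static and stretched cultures of WT (blue) and CAV1-/- (red) MCs, where circles are replicate 1, squares are replicate 2 and a line joins the 2 cultures of 1 animal. All 4 lines rise for Smad2, Smad4, Smad7, Skil, Smurf1, Smurf2 and Pmepa1, and Tgfbi is split by replicate number.

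The genes differed in abundance when set per length of their merged exons. On this scale the means over the 8 libraries ran from 45.6 CPM per kb for Pmepa1, through 30.3 for Ski, 23.5 for Smurf2, 22.8 for Smad4, 18.9 for Smurf1, 16.7 for Smad3, 16.4 for Tgfbi, 13.5 for Smad7 and 13.2 for Skil, to 5.49 for Smad2. The ranges of neighbours in this order overlapped, except that Smad2 (4.71 to 6.15 CPM per kb) stayed below the whole range of Skil (9.99 to 18.7 CPM per kb). Of the signal-transducing Smads, Smad4, the partner shared with the BMP branch, had the highest mean level per kb and Smad2 the lowest, with the ranges of Smad4 and Smad3 overlapping. By mean CPM, not set per length, the 10 genes stood above 68.2% (Smad2) to 94.2% (Pmepa1) of the 13687 genes in the table. Between its lowest and highest library a gene varied by 1.26-fold (Smad4) to 2.55-fold (Pmepa1), apart from Tgfbi, which varied by 43.3-fold.

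**Figure D2:**
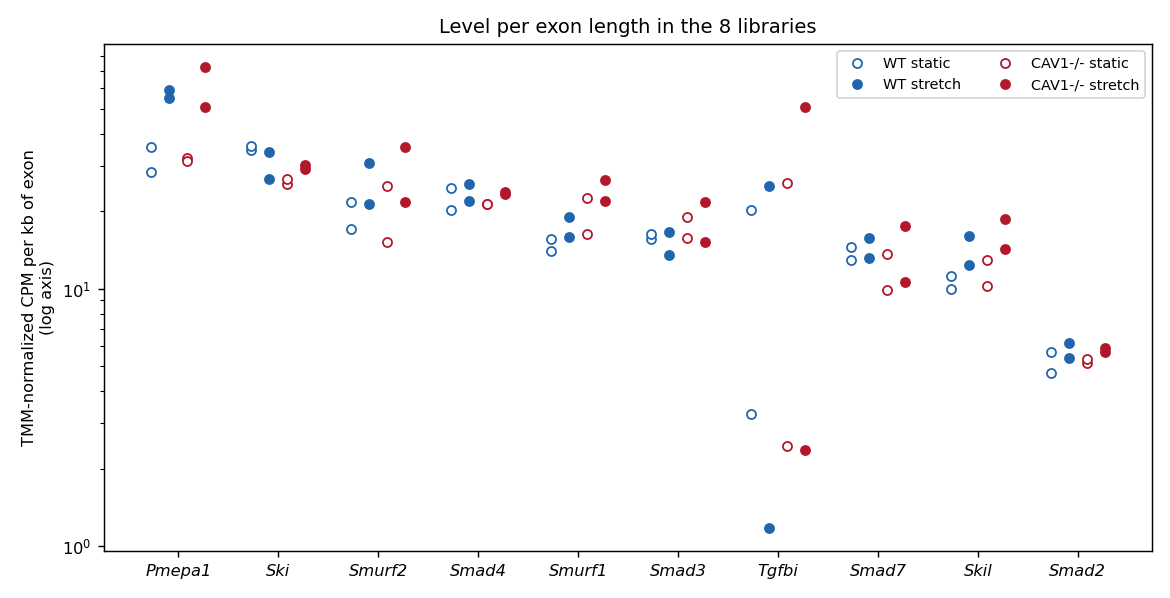
Level of each gene per kb of merged exon (log axis) in the 8 libraries, ordered by mean, with open symbols for static and filled symbols for stretched cultures. The 8 genes other than Smad2 and Tgfbi lie between 9.91 and 72.6 CPM per kb, Smad2 lies between 4.71 and 6.15, and Tgfbi spreads from 1.18 to 50.9.

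The signal transducers changed little upon stretch. Smad2 (chromosome 18, 76241580 to 76310963 of GRCm38), one of the receptor substrates, was at 41.3 and 49.7 CPM in static and 47.1 and 54.0 CPM in stretched WT cultures (replicates 1 and 2), and at 45.1 and 46.9 CPM in static and 51.9 and 49.8 CPM in stretched CAV1-/- cultures. The stretched culture was the higher one in each of the 4 animals, by 1.06- to 1.15-fold. Smad4 (chromosome 18, 73639009 to 73703780) was at 75.3 and 91.5 CPM static and 81.3 and 94.7 CPM stretched in WT, and at 79.1 and 79.5 CPM static and 86.4 and 88.1 CPM stretched in CAV1-/- MCs, a difference of 1.04- to 1.11-fold in the same direction in all 4 animals. Smad3 (chromosome 9, 63646767 to 63757994), the other receptor substrate, was at 86.3 and 90.2 CPM static and 92.2 and 75.2 CPM stretched in WT, and at 87.4 and 105 CPM static and 84.2 and 120.1 CPM stretched in CAV1-/- MCs, so that the animals went in both directions within each genotype. Averaged over the genotypes and with the animal as a block, the log2 differences of stretch over static were 0.15 (SE 0.07) for Smad2, 0.11 (SE 0.06) for Smad4 and −0.01 (SE 0.08) for Smad3, with adjusted p-values from limma of 0.265, 0.342 and 0.971. Between the genotypes the 3 genes differed by at most 0.27 on the log2 scale (Smad3 on stretch, SE 0.21, adjusted p = 0.963 from limma).

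The inhibitors Pmepa1, Skil and Smurf2 were higher upon stretch in all 4 animals, and these 3 genes rose past the threshold once each stretched culture was set against the static culture of its own animal. Whether stretch changed the genes was tested within each genotype and as the average over both, by limma, with values on the log2(value + 1) scale and a mean for each group. Without the animal in the fit, 0 of the 10 genes passed an adjusted p-value of 0.05 for stretch in WT MCs, in CAV1-/- MCs or on average, where 0 of all genes tested (0%) passed as well, and edgeR's quasi-likelihood test also called 0. At an unadjusted p of at most 0.05, Pmepa1 passed in WT MCs (2.27% of all genes did), Pmepa1 and Skil in CAV1-/- MCs (2.09%) and both again on average (4.73%). The 2 cultures of an animal shared their departure from the group means (r over genes of 0.703 in WT and 0.850 in CAV1-/-), so the animal was also fitted as a block. On average over the genotypes the block gave 201 called genes, 1.47% of those tested, 84 of them higher and 117 lower on stretch, and 3 of the 10 genes were among the higher ones. Within a single genotype the block called none of the 10 (adjusted), against 0 genes in WT and 1 gene (0.00732%) in CAV1-/- MCs. At the unadjusted threshold it passed Skil, Smurf1, Smurf2 and Pmepa1 in WT MCs and the same 4 genes in CAV1-/- MCs, beside 14.5% and 13.3% of all genes tested. The averaged calls needed both CAV1-/- animals. In a fit with a single stretch effect for both genotypes, chosen after seeing the data, 3 of the 10 genes were called, and 0 were called without either CAV1-/- animal, 2 without WT replicate 1 and 3 without WT replicate 2. Over all 13665 genes this fit called 308, but 4 and 0 without CAV1-/- replicate 1 or 2. It called 130 and 145 genes without WT replicate 1 or 2. The loss without a CAV1-/- animal was thus not particular to the 10 genes. The summed fibroblast markers were lower on stretch in all 4 animals, with 1 of the 6 higher on average and 0 called by the blocked fit. The summed markers of MCs were lower on stretch in 3 of the 4 animals. Of the 10 markers of MCs, 3 were higher on stretch on average. Only Upk3b among them was called by the blocked fit (−1.04 on the log2 scale, adjusted p = 0.0327, limma). Without the block its adjusted p from limma was 0.991 (SE 0.98). The part of both lists in the changes of the inhibitors was not tested. The Upk3b call was lost from the fit with a single stretch effect without WT replicate 1 or either CAV1-/- animal (adjusted p = 0.101 to 0.141, limma).

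Pmepa1 (chromosome 2, 173224458 to 173276533, minus strand), whose product binds Smad2 and Smad3 and withdraws them from the receptor, changed most among the 10. It was at 140.0 and 175 CPM in static WT cultures and at 292 and 270.2 CPM after stretch. CAV1-/- cultures had it at 157 and 154 CPM static and at 357 and 249 CPM stretched. Every stretched library, of either genotype, was above every static library, a separation in this direction seen in 1.46% of all genes tested. The stretched culture had 1.55 to 2.27 times the value of the static culture of its animal, and by its mean change Pmepa1 ranked 60 of 13665 genes. The log2 change was 0.84 (SE 0.20) in WT and 0.93 (SE 0.20) in CAV1-/- MCs (unadjusted p = 0.00535 and 0.00322, adjusted p = 1 in both from limma). As an average over the genotypes it was 0.89, with an adjusted p of 0.984 from limma without the block (SE 0.14) and 0.0291 with it (SE 0.10), and DESeq2, which had no block, gave an adjusted p of 0.000275. In the fit with a single stretch effect the adjusted p from limma was 0.0162, and it was 0.067 and 0.0661 without CAV1-/- replicate 1 or 2, with changes of 0.79 and 0.95. It rested on 1498 to 2162 reads in the static and 4386 to 7355 reads in the stretched libraries, whose greater depth moved with stretch; the part of depth in the result was not tested.

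Skil (chromosome 3, 31095058 to 31122577, plus strand), the co-repressor SnoN, was at 108 and 96.9 CPM static and 156 and 119.6 CPM stretched in WT MCs. CAV1-/- cultures were at 125 and 99.2 CPM static and 181 and 139 CPM stretched. Within each genotype the stretched cultures lay above the static ones, but the higher static CAV1-/- culture was above the lower stretched WT culture. The animals rose by 0.30 to 0.53 on the log2 scale, and the average of 0.46 (SE 0.06) had an adjusted p of 0.0340 from limma with the animal as block, against 0.984 without it. With a single stretch effect the adjusted p from limma was 0.0208, and it was 0.0866, 0.0951 and 0.0506 without CAV1-/- replicate 1, CAV1-/- replicate 2 or WT replicate 1. Trends with GC content and length were also removed before the blocked fit with a stretch effect for each genotype. The average change was then 0.39 and the adjusted p from limma 0.0561, just outside the threshold, against 0.0340 before removal. Pmepa1 (adjusted p = 0.0282, limma) and Smurf2 (0.0354) stayed inside the threshold.

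Smurf2, a ubiquitin ligase that works with Smad7 at the receptor, was called for stretch and Smurf1, its close relative, was not. Smurf2 (chromosome 11, 106820066 to 106920715, minus strand) was at 133 and 105 CPM static and 190.5 and 131 CPM stretched in WT, and at 154 and 93.9 CPM static and 219 and 133 CPM stretched in CAV1-/- MCs. Replicate 1 was above replicate 2 in all 4 groups, so the groups overlapped, while the change within an animal was 0.31 to 0.51 on the log2 scale. The average was 0.46 (SE 0.06, adjusted p = 0.0327 with the block and 0.991 without it, limma), and with a single stretch effect the adjusted p from limma was 0.0188, or 0.0843 and 0.0930 without CAV1-/- replicate 1 or 2. Smurf1 (chromosome 5, 144876495 to 144965847, minus strand) was at 88.4 and 99.2 CPM static and 100.2 and 119.8 CPM stretched in WT, and at 143 and 103 CPM static and 167 and 139 CPM stretched in CAV1-/- MCs. It was higher on stretch in 4 of 4 animals by 0.18 to 0.42 on the log2 scale, with an average of 0.27 (SE 0.06, adjusted p = 0.0911 with the block, limma). Whether the changes of the 2 ligases differ was not tested.

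The promoters of Smurf2 and Smurf1 are shown because both ligases were higher upon stretch in all 4 animals and Smad3 and Smad4 bind the short element CAGAC. The sequences are RefSeq bases on GRCm38.p6 that precede the annotated start of the gene, at most 250, read along the strand of the gene, with each CAGAC or its reverse complement GTCTG in capitals. Of the 10 genes, 5 had an entry (Ski, Smad3, Smurf1, Smurf2 and Tgfbi). The Smurf2 stretch is chr11:106920716-106920965 (minus strand) and holds 1 match, and the Smurf1 stretch is chr5:144965848-144966080 (minus strand) and holds 2.
Smurf2: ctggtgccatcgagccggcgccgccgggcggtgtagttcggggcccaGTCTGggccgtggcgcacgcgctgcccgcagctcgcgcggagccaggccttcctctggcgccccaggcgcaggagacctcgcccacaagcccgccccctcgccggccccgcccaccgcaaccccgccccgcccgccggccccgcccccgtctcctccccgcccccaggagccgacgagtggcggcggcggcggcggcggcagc
Smurf1: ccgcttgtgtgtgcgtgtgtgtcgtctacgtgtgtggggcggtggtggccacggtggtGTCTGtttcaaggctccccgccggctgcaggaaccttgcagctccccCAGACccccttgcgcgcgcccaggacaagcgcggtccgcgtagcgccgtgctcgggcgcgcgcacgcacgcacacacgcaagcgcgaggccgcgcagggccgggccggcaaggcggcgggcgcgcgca
At least 1 match is found in 42.2% of all 32851 promoters of 250 bases, so a match in these windows is common, and none was found in the windows of Ski and Smad3. A match describes the letters and is not a measured site.

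**Figure D3:**
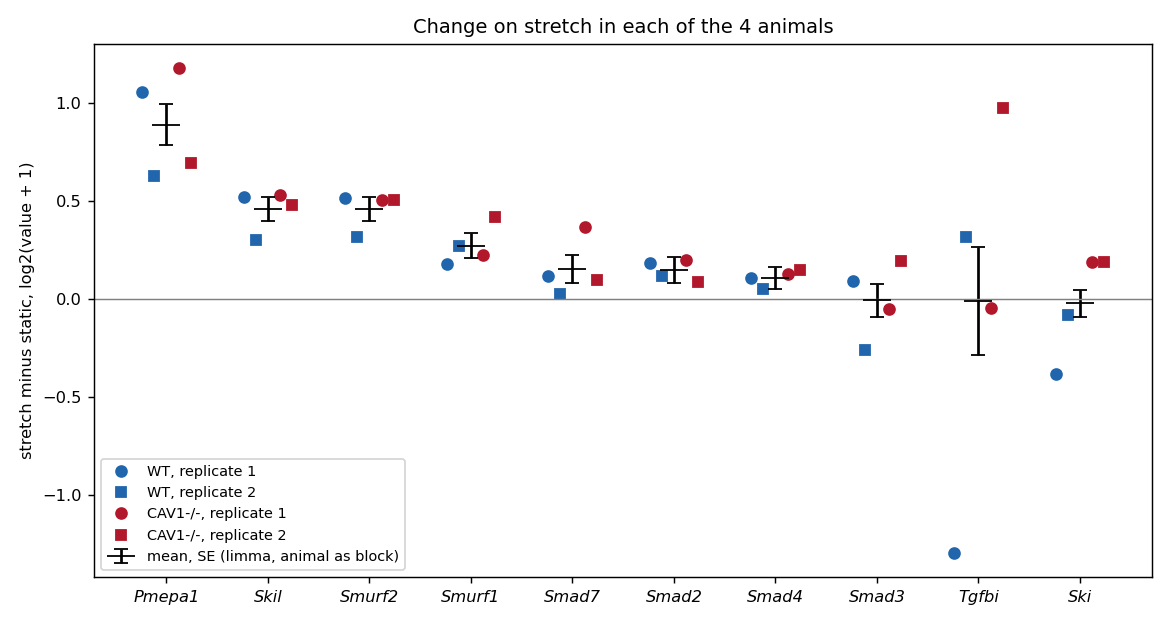
Stretch minus static on the log2(value + 1) scale for each animal (blue WT, red CAV1-/-, circles replicate 1, squares replicate 2), with the mean and SE from limma with the animal as block in black. Pmepa1 changed by 0.63 to 1.17 and Skil and Smurf2 by 0.30 to 0.53 in the 4 animals, and the WT points of Ski lie below 0 and its CAV1-/- points above it.

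Smad7 (chromosome 18, 75367529 to 75395935), the inhibitory Smad, was at 65.7 and 58.2 CPM static and 71.2 and 59.3 CPM stretched in WT, and at 61.4 and 44.8 CPM static and 79.4 and 48.0 CPM stretched in CAV1-/- MCs. The stretched culture was the higher one in 4 of 4 animals, but by 1.02-fold in WT replicate 2 and 1.29-fold in CAV1-/- replicate 1, and replicate 2 was below replicate 1 in every group. The average log2 difference was 0.15 (SE 0.07, adjusted p = 0.288 with the block, limma). With Smad2, Smad4, Skil, Smurf1, Smurf2 and Pmepa1, 7 of the 10 genes were thus higher on stretch in all 4 animals, beside 14.5% of all genes tested, and 0 of the 10 were lower in all 4, beside 16.9%. The median log2 difference over the 10 genes was 0.11 in WT and 0.28 in CAV1-/- MCs, against −0.02 and 0.00 over all genes tested, and 7 and 10 of the 10 were above 0. By groups that did not overlap, Skil, Smurf1 and Pmepa1 were higher on stretch in WT MCs (13.9% of all genes) and Ski lower (17.2%), and Smad2, Smad4, Ski, Skil and Pmepa1 were higher in CAV1-/- MCs (12.4%).

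Ski (chromosome 4, 155154075 to 155222592, minus strand), the co-repressor related to Skil, went in opposite directions in the genotypes. It was at 193 and 199 CPM in static and 148 and 188 CPM in stretched WT cultures, and at 142 and 148 CPM in static and 162 and 168 CPM in stretched CAV1-/- cultures. The static WT cultures were the highest and the static CAV1-/- cultures the lowest, and after stretch the ranges of the genotypes overlapped. The log2 differences upon stretch were −0.38 and −0.08 in the WT animals and 0.19 in both CAV1-/- animals. The difference of these responses, the genotype by stretch interaction, was 0.42 (SE 0.19, unadjusted p = 0.0728, adjusted p = 1 from limma), and with the animal as a block the unadjusted p was 0.0196 and the adjusted p 0.947 (SE 0.14). For the interaction no gene of the 10 and none of all genes tested (0%) passed the adjusted threshold with limma, edgeR or DESeq2. At the unadjusted threshold none of the 10 passed without the block, beside 66 genes or 0.483%. With the block 1 of the 10, Ski, passed it, beside 581 of 13665 genes. Leaving out the stretched culture of WT replicate 1 lowered the Ski interaction to 0.25.

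Whether loss of CAV1 changed the genes was compared in static and in stretched cultures, and no gene of the 10 passed the adjusted threshold in either. All genes tested gave 10 calls in static culture (0.0732%) and 8 on stretch (0.0585%) from limma. In static culture Ski was 0.44 lower on the log2 scale in CAV1-/- MCs (SE 0.14, unadjusted p = 0.0187, adjusted p = 0.446) and was the only one of the 10 past the unadjusted threshold, which 8.17% of all genes passed. Its static groups did not overlap, which held in this direction for 20.8% of all genes. On stretch the difference was −0.02 (SE 0.14, adjusted p = 1 from limma), and none of the 10 passed the unadjusted threshold, which 6.26% of all genes passed. Smurf1 was higher in CAV1-/- MCs without overlap in both conditions, beside 16.1% of all genes in static culture and 14.6% on stretch, by 0.37 and 0.47 on the log2 scale (SE 0.20 in both, adjusted p = 0.745 and 0.824 from limma). Its highest values were those of CAV1-/- replicate 1, whose cultures also had the high leukocyte markers. Without that static culture the Smurf1 difference was 0.14, and without that stretched culture it was 0.34. The stretched culture of CAV1-/- replicate 1 was also the highest library for Smad7 (79.4 CPM), Skil (181 CPM), Smurf2 (219 CPM) and Pmepa1 (357 CPM). The part of the leukocyte markers in these values was not tested. The median over the 10 genes was 0.01 in static culture and 0.10 on stretch, against −0.01 and 0.00 over all genes, with 5 and 7 of the 10 higher in CAV1-/- MCs.

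**Figure D4:**
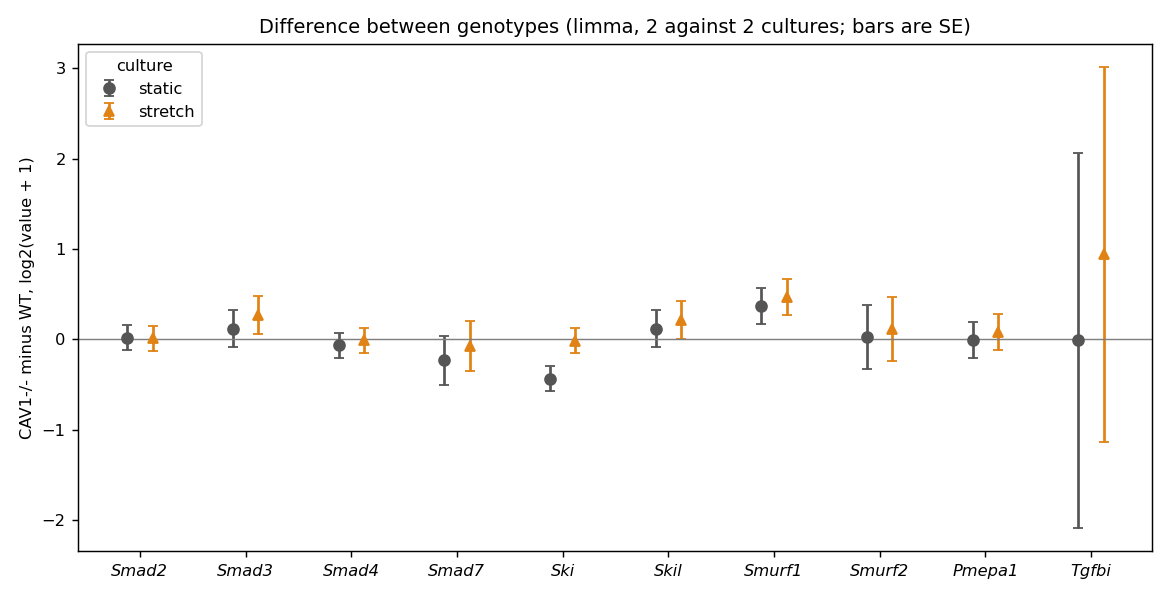
Difference of CAV1-/- and WT MCs on the log2(value + 1) scale for each gene in static (circles) and stretched (triangles) cultures, with bars for the SE from limma. Ski in static culture lies 0.44 below 0 and Smurf1 lies 0.37 and 0.47 above it, and the SE of Tgfbi is 2.07.

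Tgfbi (chromosome 13, 56609523 to 56639562, plus strand), the matrix target gene, differed more between animals than between conditions. It was at 12.3 and 75.9 CPM in static and 4.44 and 94.6 CPM in stretched WT cultures, and at 9.23 and 97.5 CPM in static and 8.93 and 192 CPM in stretched CAV1-/- cultures. Replicate 2 had 6.16, 21.3, 10.6 and 21.5 times the value of replicate 1 in these groups, and every replicate 2 culture was above every replicate 1 culture, as in 9.80% of all genes tested. The mean log2 difference between the replicate numbers was 3.55 for Tgfbi, and 10 of the genes tested had a larger absolute one. Upon stretch Tgfbi was higher in both replicate 2 animals and lower in both replicate 1 animals. The average log2 difference was −0.01 (SE 1.47, adjusted p = 0.999 from limma, and SE 0.28 with the block, adjusted p = 0.985). The replicate numbers name different animals in the 2 genotypes. The summed fibroblast markers, like Tgfbi, were higher in replicate 2 than in replicate 1 of every group, at 3971 and 5456 CPM in static WT, 1950 and 3629 in stretched WT, 1817 and 4784 in static CAV1-/- and 616 and 3788 CPM in stretched CAV1-/- cultures. Unlike Tgfbi, they overlapped between the replicate numbers and were lower on stretch in all 4 animals. The leukocyte markers summed to 439 to 4740 CPM in the replicate 1 cultures and 78.1 to 331 CPM in the replicate 2 cultures, and those of smooth muscle and pericytes to 596 to 1208 CPM and 164 to 395 CPM, a split by replicate number opposite in direction to that of Tgfbi. The part of these 3 lists in the Tgfbi values was not tested. Its promoter is shown because it is the textbook matrix target of the Smads among the 10 and its window, chr13:56609336-56609522 (plus strand, RefSeq, GRCm38.p6), holds 2 matches to the element.
Tgfbi: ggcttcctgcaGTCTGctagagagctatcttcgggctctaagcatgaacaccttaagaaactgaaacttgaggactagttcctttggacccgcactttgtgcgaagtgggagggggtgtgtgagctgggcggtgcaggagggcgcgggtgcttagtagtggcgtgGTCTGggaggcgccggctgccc
The capitals again mark CAGAC or GTCTG. The window is 187 bases long, against 250 for the share of all promoters given above.

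Across the 8 libraries some pairs of the 10 genes moved alike. This is given as a description because libraries of 1 animal are not independent and depth differed with stretch. Pearson's r of log2(value + 1) was highest between Skil and Smurf2 (0.93), Smad2 and Smad4 (0.92), Skil and Pmepa1 (0.84) and Smad7 and Smurf2 (0.84). Smad2 and Pmepa1 followed (0.73), so these pairs did not form separate sets. Smad7 and Tgfbi ran opposite to each other (r = −0.83). Every replicate 2 culture was below every replicate 1 culture for Smad7, as in 9.61% of all genes tested. For Tgfbi every replicate 2 culture was above, as in 9.80%. Among all genes tested, those most like Pmepa1 over the 8 libraries were Ss18 (r = 0.97) and Zdhhc16 (0.97), those most like Smurf2 were Papd5 (0.99) and Tmem65 (0.99), and those most like Skil were Gm20634 (0.98) and Apol9b (0.98). Tgfbi was followed most closely by Hnrnpm (0.99) and Top2b (0.98), and Ski by Lama3 (0.96) and Atp9b (0.96). Smad7 was nearest to Glud1 and F2rl1 (both 0.98), Smad2 to Cck (0.99) and Megf10 (0.97), Smad4 to Megf10 (0.98) and Postn (0.96), Smad3 to Dynlt1f (0.98) and Zmat3 (0.95), and Smurf1 to Fyn and Spsb4 (both 0.97). With 8 libraries and 13665 genes, values of this size are found for every member.

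The rest of the pathway was read from 3 lists, with Tgif1, Bambi and Ltbp2 on more than 1 list. The lists were other components of the Smad route (29 genes), TGF-β target genes (21 genes) and ligands, receptors and latency proteins (13 genes). The targets were listed as 22 symbols, of which Ctgf and Ccn2 name the same gene. Without the block none of these genes passed the adjusted threshold in any comparison by limma or edgeR. DESeq2 called Vegfa higher and Smad6 lower in static CAV1-/- than in static WT cultures, where it called 309 of the 13665 genes tested. With the animal as a block and averaged over the genotypes, 2 of the 21 target genes rose, 0 fell, and none of the 29 components or the 13 ligands, receptors and latency proteins was called, beside 1.47% of all genes. Il11, a cytokine, was at 2.10 and 3.96 CPM in static and 8.78 and 8.13 CPM in stretched WT cultures, and at 10.4 and 3.39 CPM static and 25.7 and 16.1 CPM stretched in CAV1-/- MCs, a log2 change of 1.43 (SE 0.18, adjusted p = 0.0327 from limma). Vegfa, the angiogenic growth factor, went from 169 and 136 CPM to 269 and 185 CPM in WT and from 307 and 259.9 CPM to 397 and 372 CPM in CAV1-/- MCs, a log2 change of 0.50 (SE 0.07, adjusted p = 0.0327 from limma). Il11 and Vegfa, like Pmepa1, were higher on stretch in all 4 animals. Both calls needed both CAV1-/- animals in the fit with a single stretch effect. The adjusted p from limma was 0.0164 for Il11 and 0.0191 for Vegfa with all 4 animals, 0.0833 and 0.0670 without CAV1-/- replicate 1, and 0.0697 and 0.0905 without CAV1-/- replicate 2. Without WT replicate 2 Vegfa was also lost (adjusted p = 0.0571, limma).

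Genes of these lists with the largest stretch differences that did not pass were Id1 among the targets (log2 difference −0.50, adjusted p = 0.0598 from limma with the block), Smad9 (−0.52, adjusted p = 0.0784) and Dab2 (−0.49, adjusted p = 0.150) among the components, and Tgfbr3 (−0.67, adjusted p = 0.0701) and Tgfb3 (−0.39, adjusted p = 0.127) among the ligands and receptors. Smad9 transduces BMP signals, Id1 is a BMP target and Tgfbr3 is the co-receptor betaglycan. The median log2 difference was 0.03 over the components, 0.02 over the targets and −0.12 over the ligands, receptors and latency proteins, against −0.01 over all genes tested. Within single genotypes the largest differences also took in Smad6 (−0.53), Timp1 (0.60) and Ltbp4 (−0.60) in WT and Tgfb1 (0.43) in CAV1-/- MCs, and the largest interactions were those of Crebbp (0.45), Ncor1 (0.39), Timp1 (−0.55), Ltbp2 (0.40), Tgfb2 (0.80) and Ltbp4 (0.48), with adjusted p = 1 for all of these from limma without the block. Between the genotypes the largest differences in static culture were those of Dab2 (−1.11) and Smad6 among the components, Timp1 (0.97) and Vegfa (0.89) among the targets and Ltbp4 and Ltbp3 (−0.95) among the latency proteins, with adjusted p-values of 0.133 to 0.891 from limma. On stretch they were those of Dab2 (−1.04) and Smad9 (−0.68), Il11 (1.18) and Id1 (−0.85), and Tgfb2 (1.02) and Tgfbr1 (0.78), with adjusted p-values of 0.551 to 0.970 from limma. Smad6, the inhibitory Smad of the BMP branch, was at 61.7 and 45.5 CPM in static WT and 25.5 and 26.5 CPM in static CAV1-/- cultures, and Ltbp4, which tethers latent TGF-β to the matrix, at 44.3 and 144 CPM against 22.7 and 68.1 CPM.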

How the data were processed

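RNA of 8 cultures was sequenced as 61-base single reads from poly(A) libraries. Per the labels and the methods of the study, the authors trimmed reads with cutadapt, estimated expected counts with RSEM against the GRCm38 transcriptome and applied TMM normalization in edgeR, and the deposited signal is the TMM-normalized CPM. In each library the deposited values are multiples of 1 constant, so that whole counts were recovered (100% of values whole, tolerance 0.001). Rows without a gene symbol (88) were kept under their identifiers. The kit does not mark strand. The exons of Smurf2 overlap those of a miRNA gene over 0.940% of their length, and the other 9 genes overlap none in GENCODE M21, in which 13597 identifiers matched and which gave positions and exon lengths.

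Genes with at least 1 CPM in at least 2 libraries were tested by limma (version 3.58.1, R version 4.3.3) on log2(value + 1), which understates changes of low genes, with 1 mean per group over all 8 libraries (4 residual degrees of freedom), eBayes with trend and Benjamini-Hochberg adjustment over 13665 genes, called under 0.05. All 10 genes are named, and genes of the lists if called or among the 2 largest differences of a list. Alternatives were pseudocounts of 0.1 and 5, no filter, a mean of at least 5, median-of-ratios scaling, a replicate block, edgeR 4.0.16 and DESeq2 1.42.0 run on counts, and each culture left out. The block was the animal, which the labels give, for stretch and the interaction (deviations correlated at r = 0.703 and 0.850), and the replicate number for genotype comparisons. The stretch tests were checked on simulated data, with planted changes larger than the averaged stretch changes of the 10 genes. They were not checked at smaller changes. The 10 genes and the lists were chosen with earlier results of these data known. The study gives n = 3, while the labels give 2 cultures per group. An exact permutation test of 2 against 2 cultures cannot go below p = 0.333.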

Additional observations from a re-analysis of the deposited data

Results flagged for a closer look

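Ski was the one gene of the 10 whose response to stretch went one way in both WT animals and the other way in both CAV1-/- animals. How many of all genes tested split in this way was not counted. The genotype by stretch interaction was 0.42 on the log2 scale, with changes of −0.38 and −0.08 in the WT animals and 0.19 in both CAV1-/- animals. The difference was tested and did not pass the adjusted threshold (adjusted p = 1 from limma without a block and 0.947 with the animal as block), and over 18 other settings the value ranged from 0.25 to 0.59.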

How the results depend on the processing

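The number of the 10 genes called for stretch, averaged over the genotypes, was 0 and became 3 with the replicate block and 1 with DESeq2, while the genes called in all became 201 and 34. For stretch in WT MCs DESeq2 called 3 genes in place of 0, and in CAV1-/- MCs the block called 1 and DESeq2 7. For CAV1-/- against WT in static culture, 10 calls became 246 with the replicate number as block (same-numbered cultures of different animals, r = 0.522 and 0.484), 2 with edgeR, 309 with DESeq2 and 0 to 8 with 1 culture left out. On stretch, 8 became 110, 237 and 0 to 7, with the block, DESeq2 and 1 culture left out. With that block Tgfbr1 was called in both comparisons (adjusted p = 0.0344 and 0.0485 from limma) and Vegfa in static culture (0.0364). At the adjusted threshold the block changed no other count over all genes or over the 10 genes, and none of the 10 was called in these comparisons under any setting. With 1 culture left out, a group of 1 is assumed to vary like the others.

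Settings chosen after seeing the data bore on the blocked stretch result. A single stretch effect for both genotypes called 308 genes, 3 of the 10 among them. Without the animal of WT replicate 1 it called 130 genes and 2 of the 10, without that of WT replicate 2 145 and 3, and without that of CAV1-/- replicate 1 4 and 0. Without that of CAV1-/- replicate 2 it called 0 genes. Pmepa1 then had changes of 0.79 to 0.97 and adjusted p-values of 0.025 to 0.067 from limma, Smurf2 changes of 0.44 to 0.51 and 0.0387 to 0.0930, and Skil changes of 0.43 to 0.51 and 0.0387 to 0.0951. These fits hold fewer samples. edgeR's quasi-likelihood test with the block called 152 genes and 3 of the 10, and removal of GC and length trends gave 227 and 2. Of 1090 log2 differences of the 10 genes under other settings, 997 kept their sign. Of the 93 that changed it none was called, and 12 moved by over 1 SE. Pmepa1, Skil, Smurf1 and Smurf2 stayed above 0 for averaged stretch under all 23 settings. The gene most alike stayed the same for 9 and 8 of the 10 genes with pseudocounts of 0.1 and 5. Each library held at least 436 reads of each gene other than Tgfbi, for which the lowest number was 90, and the number of animals, 2 per genotype, limits the precision.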
